A study of Mus musculus with 6 samples.

Results

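Translation factors and aminoacyl-tRNA synthetases were compared between livers of LIRKO (Liver Insulin Receptor Knockout) and Flox control mice. Genes were taken by name from the array annotation: initiation factors (*Eif1* to *Eif6* and their subunits), elongation factors (*Eef1* and *Eef2*), the release factor *Etf1* and the synthetases (*Aars*, *Cars* and so on), leaving out the Y-linked *Eif2s3y*. There were 71 such genes among the 8251 genes that could be read by name, 49 of them factors or their regulators and 22 synthetases. Where a gene had several probe sets, the one with the highest mean of the 6 arrays was used. The names also brought in *Eef1akmt1*, which encodes a methyltransferase that modifies an elongation factor and is not a factor itself.

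Liver RNA came from male, non-fasted mice on chow, 2 to 3 months old by the labels. Mice of both groups were homozygous for the floxed insulin receptor gene (IR flox/flox). Flox controls were albumin:CRE - littermates, and LIRKO mice were albumin:CRE +, so that Cre was driven by a promoter active in hepatocytes and other cells of the liver keep the receptor. Each group had 3 Affymetrix murine genome U74 version 2 arrays (set A), and each array received a pool of RNA from 2 to 3 mice. The variation seen among arrays is therefore that among pools. All values are the deposited log2 values per probe set after robust multichip averaging (RMA), and a difference of 1 is a 2-fold difference in signal. In whole liver, fewer cells of a type and less RNA per cell cannot be told apart.

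In initiation, eIF2 brings the first tRNA to the small ribosomal subunit, eIF3 holds that complex together, and eIF4E binds the cap of the mRNA with the helicase eIF4A. Insulin acts on this step through the kinase mTORC1, which phosphorylates the eIF4E-binding proteins and frees eIF4E, and on elongation through the kinase of eEF2. Under amino acid shortage or stress, kinases of the eIF2 alpha subunit slow initiation and raise the transcription factor ATF4, which binds amino acid response elements in many synthetase genes. Most of this control is by phosphorylation, which an array of mRNA does not read.

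Sequences around the start sites are shown first, because the synthetases are a known class of ATF4 targets. Promoter windows of 250 bases before to 50 bases after the start (RefSeq, GRCm38.p6) were searched for TGATGNAA, the letters at the core of the amino acid response element, on both strands. They were found in 5 of the 10 cytosolic synthetase genes that had a window, of 17 measured, and in 4.51% of the 27025 genes in the table. They were in none of the 5 mitochondrial synthetase genes and in 2 of 40 factor and regulator genes, *Eif2s3x* and *Eef2k*. Windows of 5 of these genes, shown as examples, run 5′ to 3′ on the strand of the gene, with the matching letters in capitals, which read TTNCATCA where the match is on the opposite strand.
*Tars* at chr15:11399657-11399682, minus strand, positions -15 to -8 from the start: ggagtcccgTTGCATCAgctggttag
*Gars* at chr6:55037962-55037987, plus strand, positions -30 to -23: gctgcgctaTTTCATCAtgcaccggg
*Iars* at chr13:49682128-49682153, plus strand, bases 8 to 15 of the transcript: ctgtcagtaTTGCATCAcctccagac
*Yars* at chr4:129189897-129189922, plus strand, bases 4 to 11 of the transcript: gagctcagcTGATGCAAcccgacggg
*Eef2k* at chr7:120851096-120851121, plus strand, positions -84 to -77: ttctgcttgTTTCATCAagctcagct

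A match is a description of the letters and not evidence of binding. Values of these genes follow below.

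Arrays LIRKO 2 and LIRKO 3 stood apart from the other 4 arrays. Their standard deviations over all probe sets were 1.72 and 1.78, against 1.96 to 2.01 on the others. The brightest decile of probe sets read a median of 1.09 and 0.89 lower than Flox on them (differences of -1.09 and -0.89 on the log2 scale), and the dimmest decile read 0.23 and 0.15 higher. On LIRKO 1 no decile moved by more than 0.03. Many translation genes are bright in liver, with 12 of the 71 in the brightest decile and 12 in the next, so most results are given with LIRKO 1 alone as well. *Insr*, the targeted gene, read 5.45, 5.22 and 5.38 on Flox and 5.37, 5.99 and 6.06 on LIRKO, so that no LIRKO array was below all Flox arrays. Whether this probe set lies in the deleted part is not known here, and the group names are those of the labels. Of 9 hepatocyte markers, 8 were measured, and their median level lay at percentile 99.3 of all probe sets in Flox. Their median difference was -0.61, with 7 of 8 below Flox, and was 0.09 on LIRKO 1, -0.90 on LIRKO 2, -0.95 on LIRKO 3 and 0.28 after cyclic loess. Median levels of some other marker lists differed between the groups. The median level of 5 stellate cell and fibroblast genes was 8.01 to 8.23 on Flox and 7.19 to 7.79 on LIRKO, and that of 2 measured red blood cell genes of 3 was 10.81 to 10.98 and 8.89 to 10.45, so that the ranges did not overlap. Gene by gene, the stellate cell list had a median difference of 0.07, with 2 of 5 genes below Flox. It did not move as a list. The red blood cell list had a median difference of -1.34, with 2 of 2 genes below Flox in mean. This median was -0.45 on LIRKO 1 and -0.74 after cyclic loess. The median level of the list lay at percentile 96.6 in Flox, and bright probe sets read lower on LIRKO 2 and LIRKO 3. On LIRKO 1, *Alas2* had a difference of -0.92 and *Hba-a1* one of 0.02, within Flox. Ranges did overlap for 7 Kupffer cell genes (6.80 to 7.57 on Flox and 7.15 to 7.97 on LIRKO) and for 4 skeletal muscle genes (5.78 to 6.20 and 6.09 to 7.11), and likewise for the endothelial, cholangiocyte and lymphocyte lists. Gene by gene, the muscle list had a median difference of 0.59, and of 0.11 on LIRKO 1, with 4 of 4 genes above Flox in mean. For 2 of the 4 the LIRKO arrays were all above Flox, where 9.65% of all genes were. The median level of the muscle list lay at percentile 37.3 in Flox, and dim probe sets read higher on LIRKO 2 and LIRKO 3. The Kupffer cell list had a median difference of -0.10. On LIRKO 1 it was 0.36, with 5 of 7 genes above all Flox arrays, where 25.6% of all genes were. The part of these cell types in the results was not tested.

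None of the 71 genes passed an adjusted p of 0.05 in limma, with Benjamini-Hochberg adjustment over all 12422 probe sets, of which 0.0725% passed as higher and 0.0564% as lower. The smallest adjusted p among them was 0.237. At an unadjusted p under 0.05 in limma, 19 of the 71 were lower and 4 were higher, where 15.6% of all genes were lower and 7.13% higher, and the 4 were *Eif4e*, *Wars*, *Eif3e* and *Eif2ak4*. In the methods' t-test 4 were lower and 2 higher at an unadjusted p under 0.05, where 3.71% and 2.46% of all genes were, and none passed after adjustment. The 3 LIRKO arrays lay below the 3 Flox arrays for 18 genes and above them for 5, where 16.7% and 9.65% of all genes did so. The 5 were *Wars*, *Eif2a*, *Eif2ak3*, *Eif2ak4* and *Eif4enif1*, which encodes a transporter of eIF4E. After cyclic loess their differences were 0.55, 0.18, 0.045, 0.20 and 0.0065, in that order. *Eif4enif1* is dim, at percentile 20.3 in Flox, and dim probe sets read higher on LIRKO 2 and LIRKO 3. The median difference of LIRKO from Flox was -0.28 over the 71 genes and -0.01 over all genes. LIRKO 1 had a median of -0.02, LIRKO 2 one of -0.45 and LIRKO 3 one of -0.36, against -0.01, -0.03 and -0.03 over all genes. The lower level of these genes as a whole was thus seen on the pair of arrays that stood apart and was nearly absent from LIRKO 1.

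Without LIRKO 1, 39 of the 71 passed as lower and 8 as higher, where 30.0% and 20.7% of all genes did. With LIRKO 1 alone against Flox, where the spread comes from the Flox arrays only, none passed and the smallest adjusted p was 0.240.

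**Figure D1:**
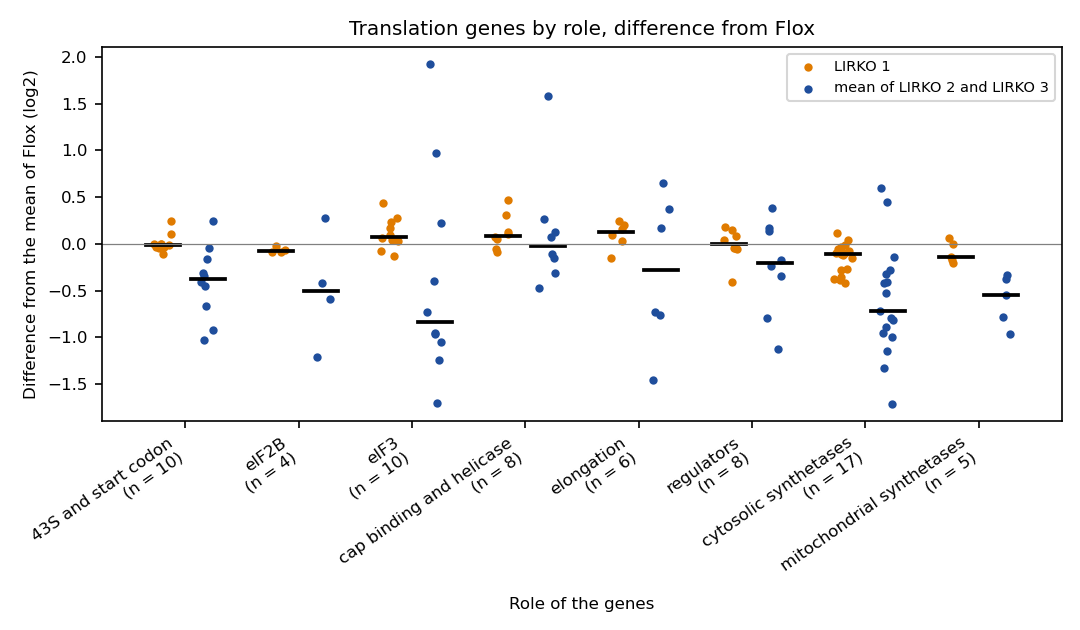
For each gene, how far it lay from the Flox mean (log2, vertical axis), by role (horizontal axis). Orange points are LIRKO 1, blue points are the mean of LIRKO 2 and LIRKO 3, and black bars are medians. For cytosolic synthetases the bars lie at -0.11 and -0.72, and for eIF3 subunits at 0.08 and -0.84.

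Cytosolic synthetases, which charge tRNAs with their amino acids, lay lower in LIRKO than in Flox as a group, also on LIRKO 1. Of 17 measured, 15 had a mean below that of Flox, with a median difference of -0.50, and 14 of them did so on each LIRKO array. For 10 the LIRKO arrays all lay below the Flox arrays (16.7% of all genes did), and for 1, *Wars*, all lay above. LIRKO 1 alone lay below all Flox arrays for 11 of the 17 and above them for 1, where 30.5% and 25.6% of all genes did. On the single arrays the median over the 17 genes was -0.11 for LIRKO 1, -0.68 for LIRKO 2 and -0.60 for LIRKO 3. The Flox arrays differed too, at 0.11, -0.08 and -0.01 around their own mean, so the median of LIRKO 1 was close to that of Flox 2. After cyclic loess between arrays, which is meant to remove shifts that depend on level, 15 of 17 were still below Flox, with a median of -0.44. None of the 17 passed the adjusted threshold in limma. At an unadjusted p under 0.05, 9 had a lower mean and 1 a higher one, where 15.6% and 7.13% of all genes did.

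**Figure D2:**
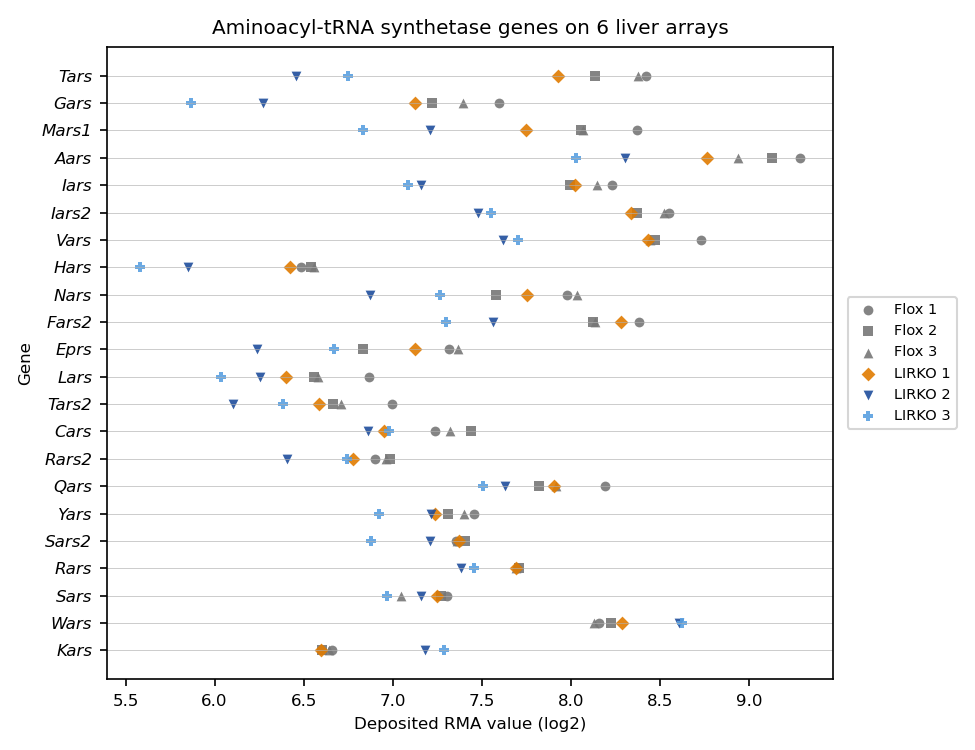
Level in log2 RMA units (horizontal axis) for 22 synthetase genes (vertical axis) on each of the 6 arrays, ordered by the difference of LIRKO from Flox. Grey symbols are Flox and coloured symbols are LIRKO. *Tars*, at the top, read 8.13 to 8.42 on Flox and 6.45 to 7.93 on LIRKO, while *Wars* and *Kars*, at the bottom, had higher means in LIRKO.

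*Tars*, threonyl-tRNA synthetase, read 8.42, 8.13 and 8.38 on Flox 1 to 3 and 7.93, 6.45 and 6.75 on LIRKO 1 to 3. All LIRKO arrays were below all Flox arrays, and LIRKO 1 was the nearest to them. The difference was -1.27 (standard error 0.36, adjusted p = 0.237 from limma), the lowest of the 71.

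*Gars*, glycyl-tRNA synthetase, which serves cytosol and mitochondria, read 7.60, 7.22 and 7.39 on Flox and 7.12, 6.27 and 5.87 on LIRKO. The groups did not overlap, but LIRKO 1 was only just below Flox 2. The difference was -0.98 (standard error 0.31, adjusted p = 0.237).

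*Mars1*, methionyl-tRNA synthetase, read 8.37, 8.06 and 8.07 on Flox and 7.75, 7.21 and 6.83 on LIRKO. The groups were apart, and the difference of LIRKO 1 from Flox, -0.42, was the lowest of the 71 on that array. The mean difference was -0.90 (standard error 0.24, adjusted p = 0.237). No TGATGNAA was in its window.

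*Aars*, alanyl-tRNA synthetase, read 9.29, 9.13 and 8.94 on Flox and 8.77, 8.30 and 8.03 on LIRKO. Here too the groups did not overlap, with a difference of -0.75 (standard error 0.21, adjusted p = 0.237) and of -0.35 on LIRKO 1. After cyclic loess the difference was -0.44.

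*Cars*, cysteinyl-tRNA synthetase, was the synthetase gene whose LIRKO arrays lay closest together. It read 7.24, 7.44 and 7.32 on Flox and 6.95, 6.86 and 6.98 on LIRKO, so that all LIRKO arrays were lower by a like amount. The difference was -0.40 (standard error 0.11, adjusted p = 0.237) and was -0.38 on LIRKO 1. *Lars*, leucyl-tRNA synthetase, read 6.87, 6.56 and 6.58 on Flox and 6.40, 6.26 and 6.04 on LIRKO, a difference of -0.44. *Vars*, *Hars*, *Yars* and *Rars*, for valine, histidine, tyrosine and arginine, also had no overlap, at -0.63, -0.58, -0.26 and -0.19. On LIRKO 1 their differences were -0.12, -0.10, -0.15 and -0.0075, in that order. For *Vars* LIRKO 1 read 8.43, just below the nearest Flox array at 8.44. Another probe set of *Yars* had a difference of 0.19, of opposite sign. For *Rars* LIRKO 1 read 7.69, less than 0.01 below the nearest Flox array. *Iars*, for isoleucine, read 8.23, 7.99 and 8.15 on Flox and 8.03, 7.16 and 7.09 on LIRKO, where LIRKO 1 lay among the Flox arrays. *Aars*, *Iars*, *Cars*, *Lars* and the 4 before *Iars* lie outside the rule for named genes and were chosen after their values were seen.

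*Wars* and *Kars* ran the other way. *Wars*, tryptophanyl-tRNA synthetase, which is also known as a gene induced by interferon gamma, read 8.16, 8.23 and 8.13 on Flox and 8.28, 8.61 and 8.62 on LIRKO. All LIRKO arrays were above Flox, with a difference of 0.33 (standard error 0.13, adjusted p = 0.237), and of 0.55 after cyclic loess. Its 2 other probe sets had differences of 0.34 and -0.32. *Kars*, lysyl-tRNA synthetase, read 6.66, 6.60 and 6.64 on Flox and 6.60, 7.18 and 7.29 on LIRKO. The higher mean came from LIRKO 2 and LIRKO 3, since LIRKO 1 was at the lower end of Flox. The difference was 0.39 (standard error 0.19, adjusted p = 0.268).

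The 5 cytosolic synthetase genes with TGATGNAA in their window had a median difference of -0.75 (range -1.27 to -0.26) and of -0.28 on LIRKO 1 (-0.39 to -0.10). The 5 with a window and no match, *Eprs*, *Kars*, *Mars1*, *Qars* and *Sars*, had medians of -0.30 (-0.90 to 0.39) and -0.05 (-0.42 to 0.04). The ranges overlapped, and no test was made on so few genes.

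Synthetases of the mitochondrion, *Fars2*, *Iars2*, *Rars2*, *Sars2* and *Tars2*, had a mean below Flox for 5 of 5 genes, with a median of -0.43, and of -0.14 on LIRKO 1. For *Iars2*, *Rars2* and *Tars2* the LIRKO arrays all lay below the Flox arrays, where 16.7% of all genes did so. *Iars2* read 8.55, 8.37 and 8.52 on Flox and 8.34, 7.48 and 7.55 on LIRKO, where LIRKO 1 was close to Flox 2. For *Sars2* the 2 dimmer probe sets had differences of 0.85 and 0.40, against -0.22 on the brightest, so its direction is uncertain.

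**Figure D3:**
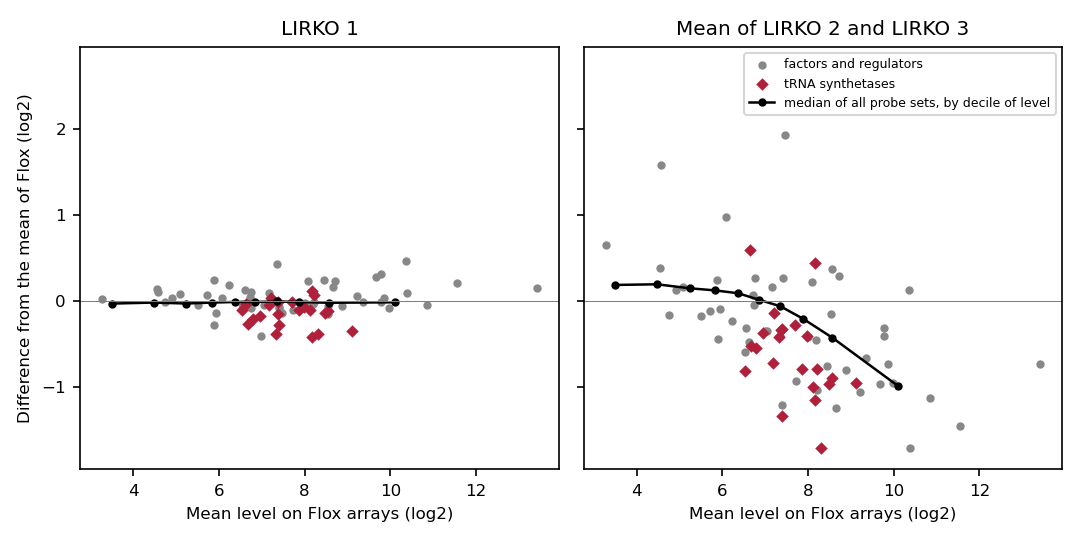
The 71 genes by level, as the Flox mean (log2, horizontal axis), and by how far they lay from that mean (log2, vertical axis), on LIRKO 1 (left) and as the mean of LIRKO 2 and LIRKO 3 (right). The black line joins the medians of all probe sets in deciles of level. Red synthetases lie mostly below the line in both panels, while grey factors scatter on both sides of it.

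Synthetases and eIF3 subunits were also set beside probe sets of like brightness. Cytosolic synthetases had a median Flox level of 7.70. Probe sets in the decile around 7.88 had median differences of -0.25 on LIRKO 2 and -0.16 on LIRKO 3. Subunits of eIF3 had a median Flox level of 8.94, but 5 of the 10 lie in the brightest decile, which had -1.09 and -0.89, and the decile below it had -0.47 and -0.38. On the same arrays eIF3 subunits had medians of -0.79 and -0.85, between the values of these deciles, and cytosolic synthetases had -0.68 and -0.60, with none of the 17 in the brightest decile. Cyclic loess brought the eIF3 median from -0.51 to -0.08, and that of cytosolic synthetases from -0.50 to -0.44. The difference between these groups of genes was not tested.

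Among factors of the start codon step, 8 of 10 genes had a mean below Flox, with a median of -0.26, and the median was -0.01 on LIRKO 1. *Eif2a*, an alternative carrier of the first tRNA, read 5.92, 5.83 and 5.89 on Flox and 6.12, 6.16 and 6.09 on LIRKO, above Flox on each array, with a difference of 0.24 (adjusted p = 0.241). *Eif1b*, an initiation factor of the start codon search, read 8.20, 8.21 and 8.17 on Flox and 8.16, 7.78 and 7.69 on LIRKO, where LIRKO 1 was just below Flox. Both were chosen after their values were seen, as the genes of the group without overlap. *Eif6*, which keeps the large ribosomal subunit from joining too early, and *Eif1a* had differences of -0.69 and -0.65, which were -0.01 and -0.11 on LIRKO 1. The other, dimmer probe set of *Eif1a* had a difference of -0.35, and of -0.24 on LIRKO 1, with all LIRKO arrays below Flox. *Eif2s1*, the alpha subunit that the stress kinases phosphorylate, is not among the genes read here.

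For eIF2B, the exchange factor that reloads eIF2 with GTP and that insulin activates through GSK-3, 4 subunits were measured and 3 had a mean below Flox. Their median difference was -0.35, and -0.07 on LIRKO 1. *Eif2b5*, the catalytic subunit, read 7.48, 7.43 and 7.27 on Flox and 7.33, 6.12 and 6.25 on LIRKO. LIRKO 1 lay among the Flox arrays and the other two were lower by over 1. The difference was -0.83 (standard error 0.31, adjusted p = 0.237), and -0.58 on its other probe set. Cyclic loess left it at -0.81, close to its value without that correction.

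Subunits of eIF3 split. Of 10 measured, 7 had a mean below Flox and 3 above, with a median of -0.51, which was 0.08 on LIRKO 1. *Eif3c*, a core subunit, read 10.54, 10.14 and 10.46 on Flox and 10.48, 8.43 and 8.92 on LIRKO, a difference of -1.10 (standard error 0.49, adjusted p = 0.245) that was -0.55 after cyclic loess. *Eif3f*, another subunit, read 7.38, 7.59 and 7.42 on Flox and 7.33, 9.50 and 9.28 on LIRKO, for a difference of 1.24 (standard error 0.54, adjusted p = 0.241), the highest of the 71.

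For both, LIRKO 1 was near Flox, at 0.10 and -0.13, and LIRKO 2 and LIRKO 3 carried the difference. *Eif3e* read 5.99, 6.19 and 6.06 on Flox and 6.12, 7.18 and 6.93 on LIRKO on its brightest probe set, a difference of 0.66, and its other probe set had one of -0.43. *Eif3a*, the largest subunit, read 7.38, 7.25 and 7.42 on Flox and 7.78, 6.97 and 6.92 on LIRKO. LIRKO 1 was above Flox by 0.43 and the other two below it, which leaves a mean difference of -0.12 (adjusted p = 0.755). Without LIRKO 2 or LIRKO 3 the mean difference of *Eif3a* was just above 0.

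**Figure D4:**
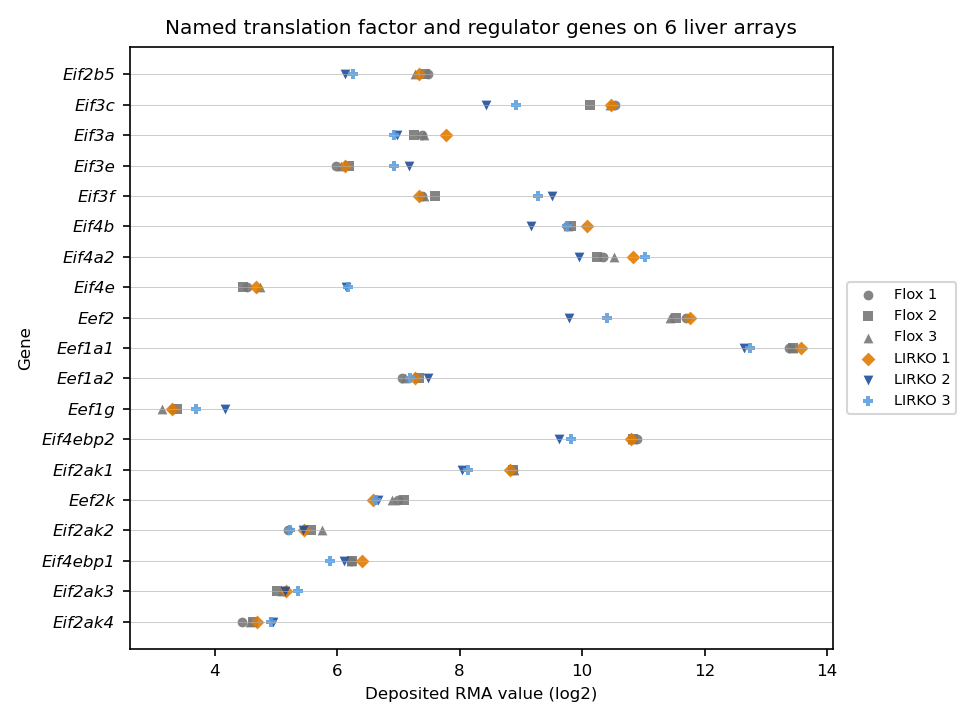
Level in log2 RMA units (horizontal axis) for 19 named factor and regulator genes (vertical axis) on each of the 6 arrays, grouped by role. Grey symbols are Flox and coloured symbols are LIRKO. For *Eif3f* LIRKO 2 and LIRKO 3 read 9.50 and 9.28 while LIRKO 1 sits with Flox, and for *Eef2k* the LIRKO arrays sit together at 6.59 to 6.66, below Flox.

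Genes of cap binding and the helicase had a median of 0.01, and of 0.09 on LIRKO 1, over 8 measured. *Eif4e*, the cap-binding protein itself, read 4.53, 4.46 and 4.73 on Flox and 4.68, 6.14 and 6.17 on LIRKO on its brightest probe set, a difference of 1.09 (standard error 0.40, adjusted p = 0.237). LIRKO 1 lay within Flox, and the other probe set, which read 4.57, 4.76 and 4.52 on Flox and 4.34, 4.61 and 4.61 on LIRKO, had a difference of -0.10. The direction of *Eif4e* is therefore uncertain. *Eif4a2*, a helicase, read 10.34, 10.24 and 10.53 on Flox and 10.83, 9.96 and 11.03 on LIRKO. LIRKO 2 was below Flox and the other two above it. *Eif4b*, which stimulates the helicase, read 9.75, 9.81 and 9.76 on Flox and 10.09, 9.17 and 9.76 on LIRKO. Both were highest relative to Flox on LIRKO 1 among genes of this group, at 0.47 and 0.31, with mean differences of 0.24 and -0.10 (adjusted p = 0.594 and 0.789). The difference of *Eif4a2* was 0.89 after cyclic loess. For *Eif4b* the sign turned to 0.43 after cyclic loess and to 0.30 after renewed quantile normalization.

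Elongation factors had a median of -0.14 over 6 genes, which turned to 0.26 after cyclic loess and to 0.08 after renewed quantile normalization, and it was 0.13 on LIRKO 1. *Eef1a1*, which delivers charged tRNAs to the ribosome, read 13.38, 13.44 and 13.44 on Flox and 13.58, 12.64 and 12.75 on LIRKO. *Eef2*, which moves the ribosome along the mRNA, read 11.69, 11.53 and 11.43 on Flox and 11.76, 9.78 and 10.41 on LIRKO. Both are in the brightest decile, and on both LIRKO 1 was above all Flox arrays while LIRKO 2 and LIRKO 3 were below.

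Their mean differences were -0.43 and -0.90 (adjusted p = 0.309 and 0.274), and after cyclic loess 0.65 and -0.15. Cyclic loess also raised the bright hepatocyte markers. *Alb* went from -0.15 to 1.07, and the number of these markers below Flox from 7 of 8 to 3 of 8. A sign that turned after cyclic loess is therefore uncertain at this level. *Eef1a2*, the form known from muscle and neurons, read 7.06, 7.33 and 7.11 on Flox and 7.27, 7.48 and 7.19 on LIRKO, a difference within the spread of the arrays (0.14, adjusted p = 0.514). *Eef1g* read 3.31, 3.39 and 3.13 on Flox and 3.31, 4.17 and 3.69 on LIRKO. Its probe set lies at percentile 3.22 of all in Flox, so the difference of 0.45 (adjusted p = 0.270) is between values near the floor of the array. Near-identical copies of *Eef1a1*, *Eif4a1* and *Eif1a* exist in the genome and may share signal with them. *Etf1*, the release factor, had a difference of 0.27, of 0.62 after cyclic loess, and its 5 probe sets ranged from -0.33 to 1.26.

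Of 8 regulators, the group in which insulin and stress signals meet, 5 had a mean below Flox, with a median of -0.11. The median was 6.5e-05 on LIRKO 1. The groups did not overlap for 3 that were lower and 3 that were higher, where 16.7% and 9.65% of all genes did so. *Eef2k*, the kinase that inhibits eEF2, read 6.99, 7.09 and 6.90 on Flox and 6.59, 6.66 and 6.63 on LIRKO. The LIRKO arrays lay close together and all below Flox, with a difference of -0.37 (standard error 0.11, adjusted p = 0.237), of -0.41 on LIRKO 1 and of -0.37 after cyclic loess. TGATGNAA is in the window of *Eef2k*, as printed above. *Cars* and *Eif2a* likewise had differences on LIRKO 1 close to those on the other arrays.

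The binding proteins of eIF4E that mTORC1 phosphorylates differed in their pattern. *Eif4ebp1* read 6.22, 6.25 and 6.22 on Flox and 6.41, 6.11 and 5.88 on LIRKO, a difference of -0.10 (adjusted p = 0.703). LIRKO 1 was above all Flox arrays, by 0.18 from their mean, and the other two were below them. *Eif4ebp2* read 10.89, 10.83 and 10.82 on Flox and 10.80, 9.62 and 9.82 on LIRKO, a difference of -0.77 (standard error 0.30, adjusted p = 0.237) that was -0.05 on LIRKO 1 and -0.12 after cyclic loess. Its other probe sets had differences of 0.49 and -0.54.

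Kinases of eIF2 differed among themselves. *Eif2ak1*, the kinase that senses heme, read 8.88, 8.87 and 8.89 on Flox and 8.82, 8.03 and 8.13 on LIRKO, a difference of -0.55 (adjusted p = 0.237) with no overlap, and of -0.27 after cyclic loess. *Eif2ak4*, which senses uncharged tRNA, read 4.45, 4.62 and 4.58 on Flox and 4.69, 4.95 and 4.91 on LIRKO, higher on every LIRKO array, at 0.30 (standard error 0.12, adjusted p = 0.238). *Eif2ak3*, the kinase of the endoplasmic reticulum, read 5.14, 5.02 and 5.11 on Flox and 5.17, 5.14 and 5.37 on LIRKO, at 0.14 (adjusted p = 0.472), and *Eif2ak2*, which senses double-stranded RNA, had -0.13 (adjusted p = 0.645). The last 3 are dim, and dim probe sets read higher on LIRKO 2 and LIRKO 3, and the part of that shift in these values was not tested.

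**Figure D5:**
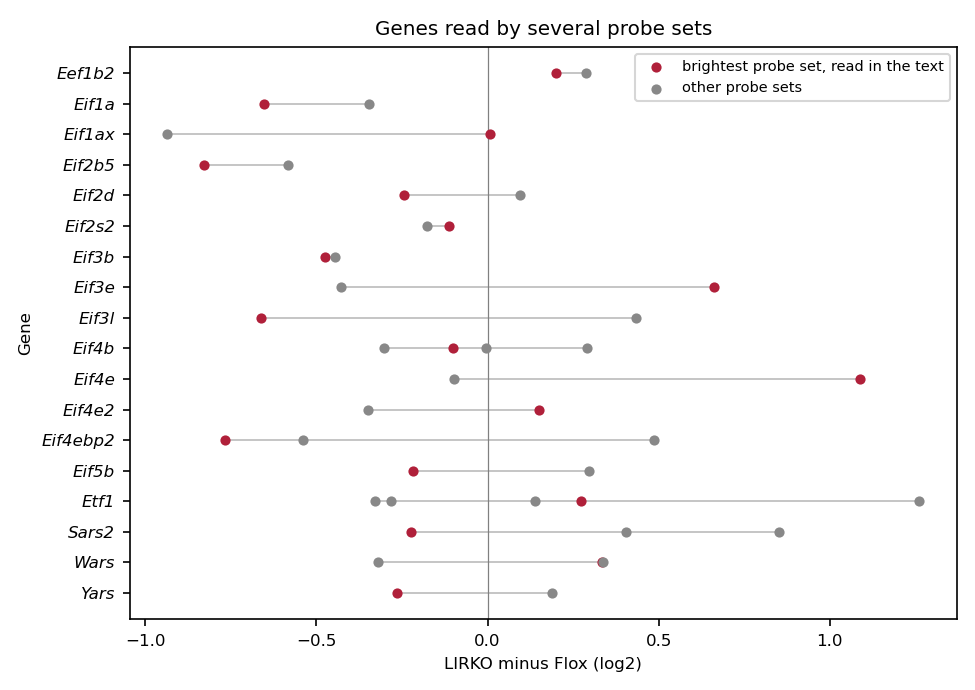
LIRKO minus Flox (log2, horizontal axis) of every probe set for the 18 genes (vertical axis) with more than 1. Red points are the brightest probe set of a gene, grey points are its others. Points of 1 gene often lie on both sides of 0, as for *Eif4e*, at 1.09 and -0.10.

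Of the 71 genes, 18 were read by several probe sets, and for 13 of these the probe sets had differences of opposite sign. Probe set names can carry a mark for looser design rules. The 82 with a plain name had a median difference of -0.30, the 6 marked r one of 0.32, the 3 marked f 0.34, the 2 marked i 0.20 and the 3 marked s -0.28, and the 1 marked g had -0.10. The marks r, f and i thus had positive medians, and s and g did not. On LIRKO 1 the medians of plain, r and f probe sets were -0.03, 0.02 and 0.01. The brightest probe sets of *Eif4e*, *Eef1b2* and *Eif4a1* are marked r.

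Other genes of the pathway were read from 2 lists. Of 29 genes of mTORC1 signalling and the translation machinery, 21 were measured and none passed in limma (2 lower and 2 higher at an unadjusted p under 0.05, shares of all genes being 15.6% and 7.13%), with a median of -0.10, which turned to 0.14 after cyclic loess and was 0.01 on LIRKO 1. With LIRKO 1 alone against Flox, 1 of the 21 passed as higher, where 0.509% of all genes passed as higher and 0.327% as lower. It was *Mknk2*, a kinase of eIF4E, which read 9.45, 9.33 and 9.30 on Flox and 10.17, 8.94 and 8.73 on LIRKO, with a difference of 0.81 on LIRKO 1 (adjusted p = 0.0256 from limma). LIRKO 2 and LIRKO 3 were below Flox, and the difference over all arrays was -0.08. *Mtor*, the kinase, read 8.11, 8.10 and 8.11 on Flox and 8.12, 7.49 and 7.80 on LIRKO. *Aimp1*, a scaffold protein of the synthetase complex, had a difference of -0.52, of 0.08 on LIRKO 1, and *Aimp2*, another, had 0.12.

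Of 21 genes of the ATF4 pathway, 19 were measured and none passed in limma, with a median of 0.11, of 0.13 on LIRKO 1 and of 0.31 after cyclic loess. At an unadjusted p under 0.05, 1 was lower (15.6% of all genes) and 5 were higher (7.13%). The 1 was *Atf5*, a transcription factor, at -0.71, of -0.10 on LIRKO 1, and the 5 were *Ddit3*, *Trib3*, *Ppp1r15a*, *Phgdh* and *Shmt2*. *Phgdh* and *Shmt2* were read by probe sets marked r and i, with differences of 0.44 and 0.70, and of 0.22 and 0.08 on LIRKO 1. For 5 of the 19 the LIRKO arrays were all above Flox (9.65% of all genes), and for none all below (16.7%). These 5 were *Atf3*, *Trib3*, *Ppp1r15a*, *Slc7a5* and *Phgdh*, while *Ddit3* and *Shmt2* overlapped Flox. *Atf4* read 10.02, 9.90 and 10.06 on Flox and 9.92, 9.52 and 9.80 on LIRKO. *Asns*, asparagine synthetase, read 9.04, 8.94 and 8.97 on Flox and 8.84, 9.30 and 9.19 on LIRKO, a difference of 0.13. *Trib3* read 7.14, 7.11 and 7.11 on Flox and 7.37, 7.61 and 7.58 on LIRKO, above Flox on each array, at 0.40 (adjusted p = 0.237). *Ddit3*, a stress-induced transcription factor, had a difference of 0.59, of 0.14 on LIRKO 1.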

How the data were processed

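The authors hybridized liver RNA to Affymetrix murine genome U74 version 2 arrays and ran robust multichip averaging (RMA) in the Bioconductor package affy, which corrects background and normalizes between arrays. The values the authors deposited are log2, 1 for each array and probe set. Software versions, and whether all arrays were normalized together, are not given in the sources used here. Of 12488 rows, 66 array controls were left out and 12422 were tested as deposited.

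The groups were compared in limma 3.58.1 under R 4.3.3 (lmFit, eBayes, Benjamini-Hochberg adjustment over all probe sets, threshold 0.05), after the study's methods. Symbols came from the platform annotation, and 71 of 71 genes had the same symbol in the RefSeq gene table. A row shared by *Eif4a3* and other genes was not used. Named genes were the 6 highest and 6 lowest differences, the 3 highest and 3 lowest on LIRKO 1, and members under known insulin or stress control. Any other gene the text describes was chosen after its values were seen. Genes and lists were chosen with earlier results of these data known. Alternatives were other scalings (quantile, median, cyclic loess), a filter on dim probe sets, an intensity trend, array weights, the methods' t-test, a replicate block, averaging probe sets by gene, LIRKO 1 alone and each array left out. The fit was also run on simulated data with independent noise. Those data held no shift by level and no split of LIRKO 1 from the other LIRKO arrays, so the run does not bear on these features. Figures used Python 3.11.15 and matplotlib 3.10.9. Nothing says that pools were independent beyond the labels, so p-values measure the spread between these arrays. The number of arrays limits the precision. Of the 7 promoters with a match, 2 are not printed here.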

Additional observations from a re-analysis of the deposited data

How the results depend on the processing

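With array weights 62 of the 71 genes passed the threshold (48 lower and 14 higher), and 0 passed under each other setting that kept every array, as with LIRKO 1 alone. Leaving out 1 array gave 0 to 47 of the 71, with 47 without LIRKO 1, and 2 (LIRKO 2) to 6095 (LIRKO 1) of all probe sets, against 16 with all arrays. The 16 became 40 after cyclic loess, 8694 with array weights, 90 with LIRKO 1 alone and 0 with the methods' t-test, which had 306 higher and 422 lower at an unadjusted p under 0.05. The median of the 71 genes, -0.28, became -0.021 with LIRKO 1 alone, -0.16 after cyclic loess, -0.20 after renewed quantile normalization and -0.41 to -0.24 with 1 array left out. Signs turned for *Eef1a1* (0.65) and *Eif4b* (0.43) after cyclic loess, and for *Eif4b* (0.30) after renewed quantile normalization. With LIRKO 1 alone they turned for *Eef1a1* (0.16), *Eef2* (0.21), *Eif3a* (0.43), *Eif3c* (0.10), *Eif3f* (-0.13), *Eif4b* (0.31), *Eif4ebp1* (0.18) and *Kars* (-0.037). Without LIRKO 2 they turned for *Eif3a* (0.0045) and *Eif4b* (0.15), and without LIRKO 3 for *Eif3a* (0.028) and *Eif4ebp1* (0.032). With 1 array left out *Eif3a* ran from -0.40 to 0.028, *Eif4b* from -0.31 to 0.15 and *Eif4ebp1* from -0.24 to 0.032. The cause was not tested. With the replicate number as a block, 0 of the 71 genes and 11 of all probe sets passed, and the block changed no call of the 71. Correlations of deviations between same-numbered arrays were 0.32, 0.40 and 0.092, and between differently numbered arrays they ran from -0.37 to 0.17. The main fit took the arrays as unpaired, and whether same-numbered arrays were paired is not known here. Of 380 values of named genes under these settings, 326 kept their direction and their side of the threshold, 15 turned, and 39 newly passed, with array weights (21) or without LIRKO 1 (18).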
